A study of Mus musculus with 8 samples.

Results

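Hyaluronan is made, broken down and bound by a small set of proteins, and 10 genes of that set were followed in mouse dorsal skin: the synthases Has1, Has2 and Has3, the hyaluronidases Hyal1, Hyal2 and Hyal3, the receptors and binding proteins Cd44, Hmmr and Lyve1, and the matrix protein gene Tnfaip6. They were taken from the array by gene name, with old names counted, so that both Lyve1 probes came in under the name Xlkd1. This gave 17 of the 41127 probes kept, or 10 of the 19489 named genes on the array. Of the 17 probes, 15 were well above background on all 8 arrays and entered the test, and 2 (Has1 probe 2 and Hyal3 probe 1) were well above background on 0 arrays. The skin came from male SKH-1 mice, a hairless strain, aged 19 weeks, whose backs had received UVB for 10 weeks from an age of about 6 weeks. Beginning 1 week after the irradiation, the backs of 4 mice were painted with 100 µl of 1% enalapril maleate dissolved in 30% ethanol and those of 4 mice with 30% ethanol alone, 5 times a week over 2 weeks. Enalapril blocks angiotensin-converting enzyme, which makes angiotensin II, and the question put to the arrays was what its local use does to gene expression in UVB-treated skin. Both groups thus share strain, sex, irradiation and ethanol, and unirradiated or unpainted skin was not analysed here. The series description also speaks of 6 mice per group and of 6 weeks of treatment, which the sample labels do not.

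Hyaluronan is a long unbranched sugar polymer of the extracellular matrix that holds water in the dermis and between epidermal cells. The synthases sit in the plasma membrane, join UDP-glucuronic acid and UDP-N-acetylglucosamine and push the growing chain out of the cell. Hyaluronidases cut it at the cell surface and in lysosomes, and the skin's hyaluronan turns over quickly. Fibroblasts and keratinocytes are the main makers in skin, CD44 is the main receptor on both, and chain length is known to affect how cells respond to the polymer.

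Between 69.1% and 72.2% of spots were well above background on the enalapril arrays, against 67.1% to 72.7% on the vehicle arrays, and 0 spots were saturated. All 4 enalapril arrays were on slide 2 and all 4 vehicle arrays on slide 1, each slide scanned by itself. Every difference below is therefore one of slide as much as of treatment, and the slide's share cannot be told apart. The local background had a median of 48 to 52 units on the enalapril arrays and 57.5 to 66 on the vehicle arrays. The 11 keratinocyte markers and the 10 fibroblast markers on the list were measured throughout, as the label of skin requires, and so were all 12 skeletal muscle markers and all 11 adipocyte markers. Each level below is the log2 processed intensity of a probe minus the 75th percentile of its array, so that 0 marks that percentile, and levels of different probes are not set against each other. A difference is enalapril minus vehicle on this log2 scale, given with limma's standard error over 4 arrays per group, and a probe counts as risen or fallen where limma's p-value, adjusted by the Benjamini-Hochberg method over all 28580 probes tested, is under 0.05.

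None of the hyaluronan genes passed the test with enalapril. Limma called 0 of the 15 probes (0 higher and 0 lower), where 10.4% of all probes tested were called, 3.82% higher and 6.61% lower. At an unadjusted p under 0.05 there were 2 member probes, Cd44 probe 3 and Lyve1 probe 2, or 13.3% of the 15, against 29.4% of all probes. At an adjusted p under 0.10 the same 2 probes were called, where 19.3% of all probes were. The 4 enalapril arrays lay clear of the 4 vehicle arrays for 1 probe of 15, Cd44 probe 3, or 6.67%, against 20.2% of all probes (7.12% higher and 13.1% lower). The difference was positive for 10 probes and negative for 5, with a median of 0.09 beside −0.05 over all probes. The 95% confidence interval stayed within a change of 1 log2 in either direction for 11 of the 15 probes. It reached beyond that for Has3, Tnfaip6, Lyve1 probe 2 and Cd44 probe 2, so the data do not bound those 4 within a 2-fold change. The intervals depended on the processing, and some of those 11 probes were not so bounded in other settings. With normexp, another background correction, upper ends were 2.16 for Hyal3 probe 2, 1.96 for Hmmr and 1.86 for Has1 probe 1. Those of Cd44 probe 1 and Lyve1 probe 1 were 1.81 and 1.17. In the uncentred series matrix values, lower ends were −1.18 for Hyal3 probe 2, −1.17 for Hyal2 and −1.03 for Hmmr. There, Has1 probe 1 and Lyve1 probe 1 both reached −1.13. The other analysis settings called between 0 and 2 of the probes, as given further on. The count of calls over all probes depended on each single array: it was 2979 with all arrays, 781, 441, 633 and 7061 without enalapril 1, 2, 3 and 4 in turn, and 410, 523, 1733 and 798 without vehicle 1, 2, 3 and 4.

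**Figure D1:**
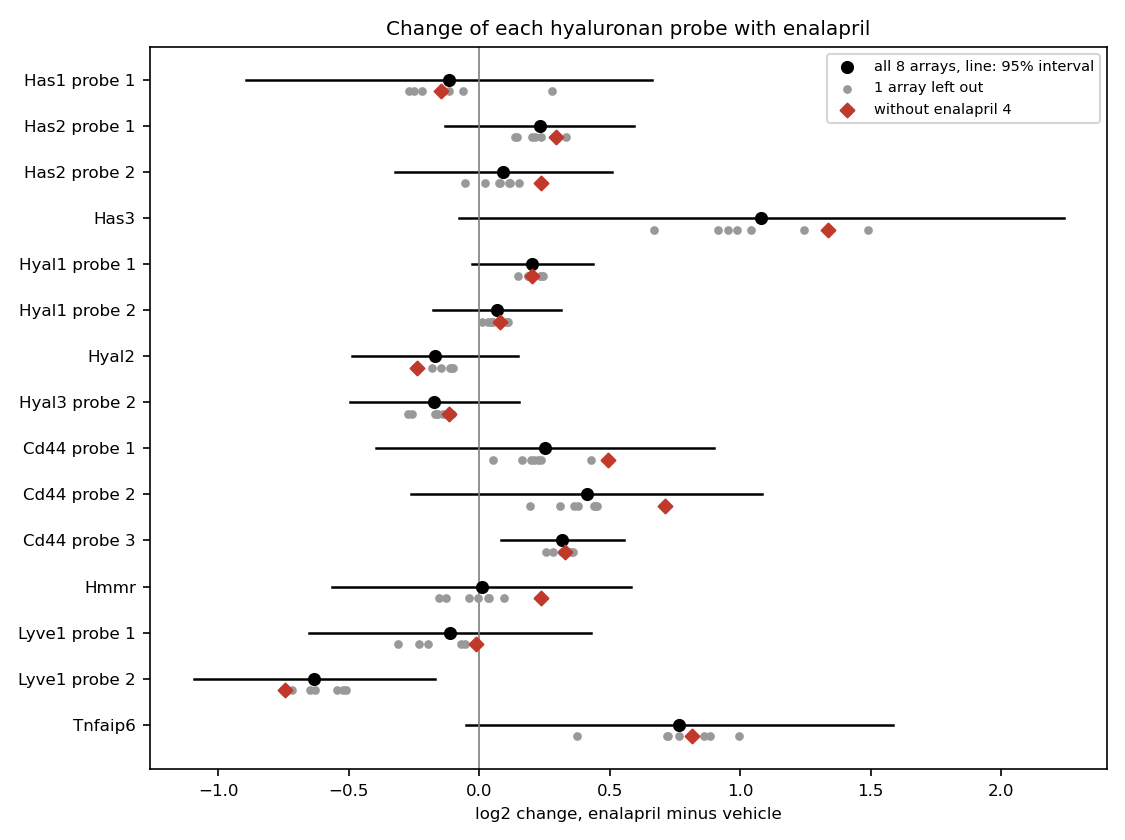
Log2 difference (horizontal axis, enalapril minus vehicle) of each of the 15 tested probes, with black points for limma's estimate, lines for its 95% confidence interval, grey points for fits with 1 array left out and red diamonds for the fit without enalapril 4. Cd44 probe 3 (0.32) and Lyve1 probe 2 (−0.63) have intervals clear of 0 before adjustment, Has3 has the highest estimate (1.08) with an interval from −0.08 to 2.24, and the interval of Hmmr is centred near 0 (0.01).

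Of the 4 synthase probes tested, 0 rose and 0 fell, and Has3 had the highest estimate and the widest spread. Has3, a synthase known from epidermis, had levels of −1.88, −1.71, −1.61 and −2.76 on the enalapril arrays, against −2.57, −3.57, −1.84 and −4.30 on the vehicle arrays. Enalapril 2 and 3 lay above every vehicle array and enalapril 1 just under vehicle 3, but enalapril 4 lay below vehicle 1 and vehicle 3, so the groups overlapped. The difference of 1.08 ± 0.51, or 2.11-fold, was the highest among the members and did not pass (adjusted p = 0.196). It depended on single arrays, being 0.67 without vehicle 4 and 1.49 without vehicle 3, where it had an adjusted p of 0.0806. The spread within groups, a pooled SD of 0.85, was wider than that of 97.4% of all probes.

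Has2, the synthase that dermal fibroblasts use most, is covered by 2 probes. Probe 1 (A_51_P213359) read −0.35, −0.82, −0.55 and −0.83 with enalapril, against −0.57, −0.92, −0.84 and −1.13 with vehicle. Vehicle 1 lay among the enalapril arrays, and the difference was 0.23 ± 0.16 (adjusted p = 0.365), with a 95% interval of −0.13 to 0.59. Probe 2 (A_52_P327764) read −1.75, −1.64, −1.25 and −2.12 with enalapril, against −1.71, −1.99, −1.61 and −1.82 with vehicle, and enalapril 4 was the lowest array of all. Its difference was 0.09 ± 0.18 (adjusted p = 0.775), turning to −0.05 without enalapril 3. The responses of the 2 probes lay 0.14 apart, which did not pass (p = 0.486 by an exact two-sided permutation test, adjusted p = 0.900 over the 6 probe pairs of the members). Both intervals, which end at 0.59 and 0.51, lie below a 2-fold rise.

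Has1, the remaining synthase gene, was measured by probe 1 (A_51_P492456) at −3.50, −3.71, −3.55 and −3.46 with enalapril, against −2.26, −3.85, −3.76 and −3.90 with vehicle. Vehicle 1 alone stood high, and the other vehicle arrays were lower than every enalapril array. The difference of −0.12 ± 0.34 (adjusted p = 0.853) turned to 0.28 ± 0.11 without vehicle 1, where it did not pass either (adjusted p = 0.191). Has1 probe 2 (A_52_P440436) was not well above background on any array and gives no level in either group.

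**Figure D2:**
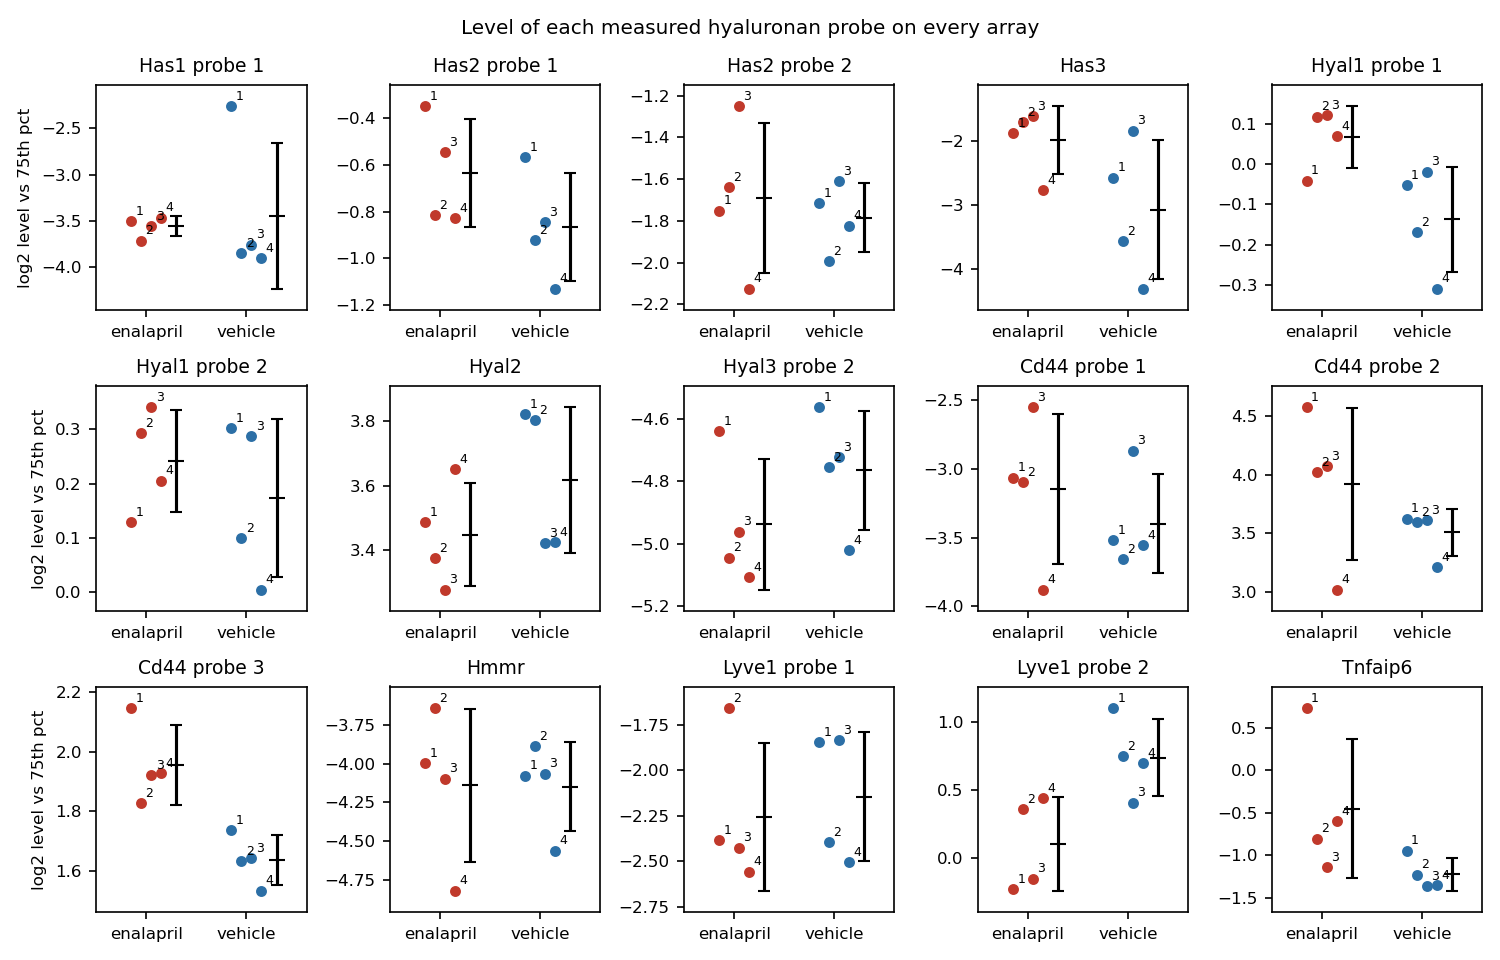
Level of each tested member probe on every array (vertical axis, log2 intensity relative to the 75th percentile of the array), with enalapril left of vehicle, digits for the replicate number, bars for the group mean ± SD (n = 4) and a scale of its own in each panel. Cd44 probe 3 is the panel in which the groups do not overlap, vehicle 1 stands alone for Has1 probe 1 (−2.26), and enalapril 1 stands alone for Tnfaip6 (0.73).

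Of the 4 hyaluronidase probes tested, 0 rose and 0 fell, and each spread less within its groups than the median probe, whose pooled SD was 0.22. HYAL2, held at the cell surface, makes the first cuts in long chains, and HYAL1 finishes the fragments in lysosomes. Hyal2 (A_51_P284577) had levels of 3.49, 3.38, 3.28 and 3.65 with enalapril, against 3.82, 3.80, 3.42 and 3.42 with vehicle. Enalapril 4 and enalapril 1 lay within the range of the vehicle arrays, and the difference was −0.17 ± 0.14 (adjusted p = 0.456), with a sign that flipped to 0.02 by quantile normalization. Hyal1 probe 1 (A_51_P479408) read −0.04, 0.12, 0.12 and 0.07 with enalapril, against −0.05, −0.17, −0.02 and −0.31 with vehicle. All but enalapril 1 lay above the vehicle arrays, and the difference was 0.20 ± 0.10 (adjusted p = 0.219). Hyal1 probe 2 (A_52_P144173) read 0.13, 0.29, 0.34 and 0.21 with enalapril, against 0.30, 0.10, 0.29 and 0.00 with vehicle, with overlapping groups and a difference of 0.07 ± 0.11 (adjusted p = 0.714). The signs of these 2 differences turned in the series matrix values, at −0.16 and −0.30. The 2 Hyal1 probes lay closer together with enalapril than with vehicle, by 0.14. Probe 1 minus probe 2 was −0.17 (SD 0.03) with enalapril and −0.31 (SD 0.04) with vehicle. The exact two-sided permutation test gave p = 0.0286, the smallest that 70 splits can give. A pair that alone reaches this p cannot pass after adjustment over the 6 pairs (adjusted p = 0.171), so the adjusted test does not decide it. The pooled SD of 0.11 for Hyal1 probe 1 was wider than that of 8.93% of all probes. In the main fit, the 95% intervals of −0.03 to 0.44 and −0.18 to 0.31 lay well within a 2-fold difference. In the series matrix values their lower ends were −0.80 and −0.93.

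Hyal3, whose protein is known to have little hyaluronidase activity of its own, had 1 usable probe, A_51_P390480, printed 10 times on each array. It read −4.64, −5.04, −4.96 and −5.11 with enalapril, against −4.56, −4.76, −4.72 and −5.02 with vehicle, so that the arrays interleaved. The difference was −0.17 ± 0.14 (adjusted p = 0.454). The probe was dim, at 25.4 to 58.3 units of processed intensity, and its difference ran from −0.54 to 0.75 over the other settings. The 10 spots of an array scattered with an SD of 0.06 to 0.20. The spread between animals was 0.21 with enalapril and 0.19 with vehicle. Each level is the mean of the 10 spots, so it carries less error than a single spot. The other probe, A_51_P390476, was not well above background on any array. Hyal1, Hyal2 and Hyal3 lie next to each other on chromosome 9 in the RefSeq annotation. A pair of probes that carry the name Nat6, an old synonym of Hyal1 and also of Naa80, belong to Naa80 by their transcript accession and were not counted.

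Cd44 encodes the main hyaluronan receptor of keratinocytes, fibroblasts and leukocytes, and its 3 probes had the most positive differences among the receptors. Probe 3 (A_52_P523459), printed 10 times per array, read 2.14, 1.83, 1.92 and 1.93 with enalapril, against 1.74, 1.63, 1.64 and 1.54 with vehicle. Every enalapril array lay above every vehicle array. The difference was 0.32 ± 0.10, or 1.25-fold, with a 95% interval of 0.08 to 0.55 and an unadjusted p of 0.0139, and it did not pass (adjusted p = 0.0840). Its 10 spots agreed within an SD of 0.03 to 0.06 on each array, less than the spread between animals of 0.13 with enalapril and 0.08 with vehicle. It passed by quantile normalization (0.42, adjusted p = 0.0476), while in the uncentred series matrix values its sign was negative (−0.05, adjusted p = 0.929), where the median over all probes was −0.41.

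Cd44 probe 2 (A_52_P229536) read 4.57, 4.02, 4.07 and 3.02 with enalapril, against 3.62, 3.59, 3.61 and 3.21 with vehicle. Enalapril 1, 2 and 3 were the highest arrays and enalapril 4 the lowest. The difference was 0.41 ± 0.30 (adjusted p = 0.388), and without enalapril 4 it was 0.71 ± 0.17 and passed (adjusted p = 0.0233). Cd44 probe 1 (A_51_P407053) read −3.06, −3.10, −2.55 and −3.88 with enalapril, against −3.52, −3.66, −2.87 and −3.55 with vehicle, and enalapril 4 was again the lowest. Its difference was 0.25 ± 0.28 (adjusted p = 0.594). None of the 3 pairs of Cd44 probes passed a test of unequal response (exact permutation p between 0.60 and 0.943), with differences between −0.16 and 0.09 log2.

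The Cd44 promoter is shown because Cd44 probe 3 was the member probe whose groups did not overlap. It is given from 250 bases before to 50 bases after the start in RefSeq GRCm38.p6, at chr2:102901616-102901915 on the minus strand, 5′ to 3′, with the GC box GGGCGG in capitals.
Cd44: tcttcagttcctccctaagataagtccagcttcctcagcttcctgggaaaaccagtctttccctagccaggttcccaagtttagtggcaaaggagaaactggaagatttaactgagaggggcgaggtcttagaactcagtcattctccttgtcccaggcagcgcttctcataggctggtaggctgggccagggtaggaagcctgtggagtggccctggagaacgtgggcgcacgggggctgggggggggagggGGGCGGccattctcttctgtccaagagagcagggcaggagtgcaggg
The GC box, which Sp1 family factors bind, begins at base 4, counted from the start as base 1. Searched on both strands, GGGCGG or CCGCCC was found in 35.7% of all 32851 promoters in the RefSeq table and in 6 of the 7 member promoters it holds, the exception being Has1. The TATA box TATAAA, present in 13.6% of all promoters, and the E-box CACGTG, present in 7.15%, were in 0 of the 7. Promoters of Has2, Has3 and Lyve1 are not shown.

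Hmmr encodes RHAMM, which binds hyaluronan at the cell surface and works inside dividing cells on the mitotic spindle. Its probe (A_52_P9656) read −4.00, −3.64, −4.10 and −4.82 with enalapril, against −4.08, −3.89, −4.07 and −4.56 with vehicle. Enalapril 4 was lowest and vehicle 4 next to it, and the other 6 arrays lay close together. The difference was 0.01 ± 0.25 (adjusted p = 0.984), with a 95% interval of −0.56 to 0.58. Of the 15 proliferating cell markers, 1 rose and 1 fell, beside 3.58% higher and 7.97% lower over all genes, by 1 probe each. Top2a, the topoisomerase of dividing cells, rose by 0.58 ± 0.12 (adjusted p = 0.0289) and Cdc20, an activator of the anaphase-promoting complex, fell by 0.77 ± 0.16 (adjusted p = 0.0272). Each kept its call in 2 of the 8 fits with an array left out. The markers' median was −0.07, beside −0.08 over 1 probe for each of 19195 genes, and their summed level was 25.6 to 36.5 with enalapril and 35.4 to 43.0 with vehicle, in multiples of the 75th percentile.

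Lyve1, a receptor found on lymphatic endothelium and on some macrophages, had the most negative difference of all members. Probe 2 (A_52_P686785) read −0.23, 0.36, −0.15 and 0.44 with enalapril, against 1.10, 0.75, 0.41 and 0.69 with vehicle. Only enalapril 4 reached into the vehicle range, just above vehicle 3. The difference was −0.63 ± 0.20, or 1.55-fold lower, with a 95% interval of −1.09 to −0.17 and an unadjusted p of 0.0129, and it did not pass (adjusted p = 0.0808). It was −0.75 and passed without enalapril 4 (adjusted p = 0.0322), and it was between −0.51 and −0.74 and did not pass in the other 7 fits with an array left out. It also passed with array weights (adjusted p = 0.0325), a fit that called 8534 of all probes, and with repaired normexp background correction (0.0448). In the uncentred series matrix values it passed too (0.0476). There the median over all probes was −0.41, and 4.97% of the called probes were higher.

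Lyve1 probe 1 (A_51_P155052), which reads the same gene, was at −2.38, −1.66, −2.42 and −2.56 with enalapril, against −1.85, −2.39, −1.83 and −2.50 with vehicle. The groups overlapped throughout, and the difference was −0.11 ± 0.24 (adjusted p = 0.792). The gap between the responses of the 2 Lyve1 probes was 0.52 (exact two-sided permutation p = 0.143, adjusted p = 0.429). In bulk skin, fewer cells of a type and less RNA per cell cannot be told apart, so the cell type markers are set beside Lyve1. Of 19195 genes by 1 probe each, 3.58% rose and 7.97% fell. Of the 6 lymphatic endothelial markers measured, 0 rose and 0 fell, and their median was 0.07, with a range of −0.08 to 0.37. Those with the smallest p were Reln (0.37 ± 0.15, adjusted p = 0.143), the glycoprotein gene Pdpn (0.20 ± 0.11, adjusted p = 0.273) and Flt4, the receptor for the lymphatic growth factor VEGF-C (0.23 ± 0.13, adjusted p = 0.274). Their summed level was 7.79 to 9.92 with enalapril and 7.57 to 11.6 with vehicle. Of 11 macrophage and dendritic cell markers, 1 rose and 0 fell, with a median of −0.09 and summed levels of 60.8 to 76.4 with enalapril and 68.1 to 76.5 with vehicle. Itgam, an integrin of myeloid cells, rose by 0.58 ± 0.13 (adjusted p = 0.0324). The Fc receptor gene Fcgr1 was at −0.56 ± 0.17 (adjusted p = 0.0687) and the scavenger receptor gene Cd163 at −0.43 ± 0.13 (adjusted p = 0.0691), and neither passed. Fcgr1 was negative in all 21 other settings (−0.92 to −0.40) and passed in 4. Cd163 was likewise negative in all 21 (−0.80 to −0.34) and passed in 4, while Itgam was positive in all 21 (0.21 to 0.66) and passed in 9. The call for Itgam held in 1 of the 8 fits with an array left out. The part of cell makeup in the Lyve1 values was not tested.

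Tnfaip6 encodes TSG-6, which inflammatory signals induce and which moves heavy chains of inter-alpha-trypsin inhibitor onto hyaluronan, cross-linking it. Its probe (A_51_P315785) read 0.73, −0.80, −1.14 and −0.60 with enalapril, against −0.95, −1.23, −1.36 and −1.35 with vehicle. Enalapril 1 stood far above the others of its group, and enalapril 3 lay inside the vehicle range. The difference was 0.77 ± 0.36, or 1.70-fold, with a 95% interval of −0.05 to 1.59 (adjusted p = 0.194). Without enalapril 1 it was 0.37 ± 0.17 (adjusted p = 0.219). Its pooled SD of 0.59 was wider than that of 92.1% of all probes.

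The Tnfaip6 promoter is shown because it holds the AP-1 site of the member promoters, and Tnfaip6 had the highest difference among the members with a promoter in the table. It spans the same 300 bases around the start in RefSeq GRCm38.p6, at chr2:52037863-52038162 on the plus strand, 5′ to 3′, with the motif matches in capitals.
Tnfaip6: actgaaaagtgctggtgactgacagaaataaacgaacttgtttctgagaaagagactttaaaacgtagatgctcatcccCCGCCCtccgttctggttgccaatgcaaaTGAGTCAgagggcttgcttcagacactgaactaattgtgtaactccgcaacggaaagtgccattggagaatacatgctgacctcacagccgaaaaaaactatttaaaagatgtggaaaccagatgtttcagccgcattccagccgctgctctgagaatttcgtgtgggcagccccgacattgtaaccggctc
The first match is a GC box read on the other strand (CCGCCC), which begins at −171 from the start, and the next is the AP-1 site TGANTCA at −142. TGANTCA was found in 7.81% of all promoters and in 1 of the 7 member promoters. The cyclic AMP response element TGACGTCA, found in 1.79% of all promoters, was in that of Has1. The cell cycle homology region TTTGAA, found in 17.9% of all promoters, was in 3 of the 7, those of Hmmr, Hyal3 and Has1. A match describes the letters in this window and not binding in the skin.

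Across the members, some arrays stood at the edge of their group more often than others. Enalapril 4 was the lowest of its group for 8 of the 15 probes. Vehicle 4 was the lowest of its group for 10 probes and vehicle 1 the highest for 9. The members are measured on the same arrays, so these counts share their source. The pooled SD of the members ran from 0.11 for Hyal1 probe 1 and Cd44 probe 3 to 0.85 for Has3, beside a median of 0.22 over all probes.

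Around the members, 86 genes of hyaluronan metabolism and binding were listed, of which 85 were on the array and 78 were tested by 1 probe each. Of these, 3 rose and 2 fell, beside 3.58% higher and 7.97% lower (11.5% in either direction) of 19195 genes, and the median of the list was −0.05, beside −0.08. Those that rose were Msn, Epb41 and Pgm2, and those that fell were Uap1l1 and Rarb. The count of 5 depended on single arrays: it was 3, 1, 1 and 17 without enalapril 1, 2, 3 and 4 in turn, and 1, 1, 1 and 2 without vehicle 1, 2, 3 and 4.

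Msn encodes moesin, an ERM protein that ties the tail of CD44 to the actin cytoskeleton. Its brightest probe read −0.17, −0.26, −0.42 and −0.01 with enalapril, against −1.07, −1.17, −1.08 and −1.09 with vehicle. The groups lay far apart, and Msn rose by 0.89 ± 0.11 (adjusted p = 0.00927), a call kept in all 8 fits with an array left out. Of 21 other fits, those included, 17 called it, and it was lost with normexp, by E1A control centring, in the series matrix values and with the replicate block, with differences between 0.52 and 0.94 there. Its other probes, however, differed by 0.02 and 0.22 and did not pass (smallest adjusted p = 0.423). Epb41, which encodes the membrane skeleton protein 4.1, rose by 0.61 ± 0.15 (adjusted p = 0.0394), with other probes between 0.39 and 0.77. By the brightest probe of each gene, these were the 2 of 11 CD44 partners that rose, 0 fell, and the list's median was 0.13. Mmp14, a membrane protease that cleaves CD44, did not pass by its brightest probe (0.46 ± 0.16, adjusted p = 0.0943), while its other probe passed (0.85, adjusted p = 0.0196). Epb41 kept its call in 2 of the 8 fits with an array left out.

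In the supply of UDP-sugars, the building blocks of the chain, 1 of 16 genes rose and 1 fell by the brightest probe of each, with a median of 0.04. Pgm2, a phosphoglucomutase relative, rose by 0.44 ± 0.11 (adjusted p = 0.0453), and Uap1l1, a relative of the pyrophosphorylase that makes UDP-N-acetylglucosamine, fell by 0.50 ± 0.13 (adjusted p = 0.0440). The other Uap1l1 probe did not pass (−0.16, adjusted p = 0.615). The calls of Pgm2 and Uap1l1 each held in 1 of the 8 fits with an array left out. Ugp2, which makes UDP-glucose, did not pass by its brightest probe (−0.34 ± 0.10, adjusted p = 0.0563), while its other probe passed (−0.52, adjusted p = 0.0330). Ugdh, which makes UDP-glucuronic acid, read 2.80, 2.63, 2.60 and 2.48 with enalapril, against 2.80, 2.77, 2.74 and 2.80 with vehicle, a difference of −0.15 ± 0.10 (adjusted p = 0.340). Of 22 upstream factors of synthase expression, 0 rose and 1 fell, with a median of −0.12. Rarb, a retinoic acid receptor, fell by 0.52 ± 0.14 (adjusted p = 0.0486) and kept its call in 2 of the 8 fits.

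Among the other degrading enzymes, 0 of 8 tested rose or fell, with a median of −0.12. Cemip, a hyaluronan-binding protein needed for depolymerisation in skin fibroblasts, read −1.31, −0.93, −0.87 and −1.34 with enalapril, against −1.15, −0.88, −0.75 and −1.20 with vehicle, a difference of −0.12 ± 0.16 (adjusted p = 0.657). The other tested Cemip probes differed by between −0.46 and 0.13 and did not pass (smallest adjusted p = 0.104). Cemip2, a relative of Cemip, read 0.24, −0.42, −0.16 and −0.36 with enalapril, against −0.57, −0.69, −0.42 and −0.75 with vehicle. Every enalapril array lay above every vehicle array, although enalapril 2 and vehicle 3 all but met, and the difference of 0.43 ± 0.16 did not pass (adjusted p = 0.113). Of 7 other receptors, 0 rose or fell, with a median of −0.03. The scavenger receptors Stab1 and Stab2 differed by −0.07 ± 0.18 (adjusted p = 0.824) and −0.02 ± 0.15 (adjusted p = 0.950).

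Of 14 matrix partners tested, 0 rose or fell, with a median of 0.05. Vcan, the large proteoglycan versican that hyaluronan anchors in the dermis, read −1.04, −1.65, −1.70 and −1.62 with enalapril, against −1.97, −2.07, −2.09 and −2.05 with vehicle. Every enalapril array lay above every vehicle array, and the difference of 0.54 ± 0.15 missed the threshold (adjusted p = 0.0567). It passed in 7 of 21 other settings, 1 of them the looser threshold of 0.10, with an adjusted p between 0.0256 and 0.719. Ptx3, a pentraxin that works with TSG-6 in hyaluronan matrices, read −2.07, −2.80, −3.21 and −3.24 with enalapril, against −2.94, −3.38, −2.68 and −3.17 with vehicle, a difference of 0.21 ± 0.27 (adjusted p = 0.642).

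**Figure D3:**
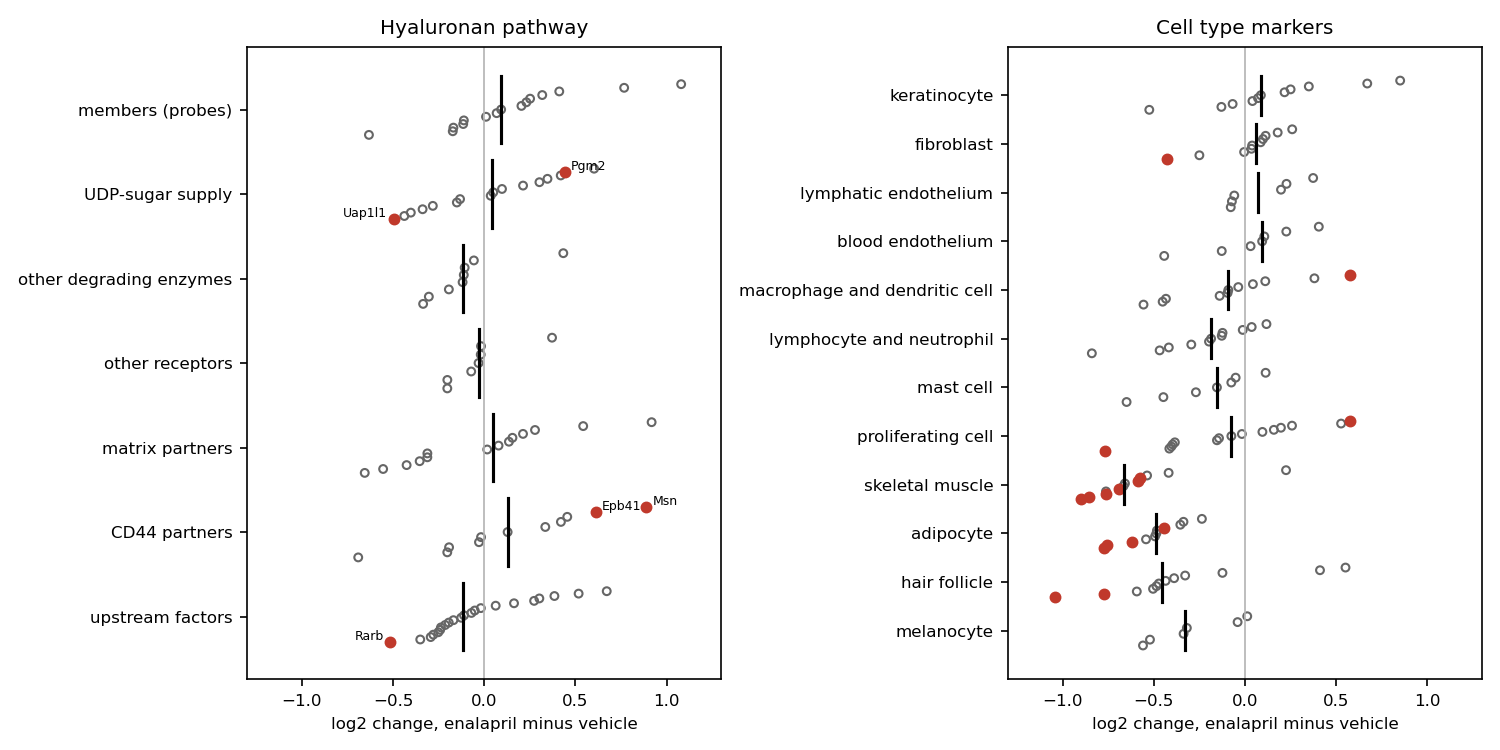
Log2 difference (horizontal axis, enalapril minus vehicle) of each gene, by pathway list on the left and by cell type marker list on the right, with filled points for genes past the test and a bar for the median of the list. The members have 0 filled points, the pathway lists have 5 (Msn, Epb41, Pgm2, Uap1l1 and Rarb), and skeletal muscle and adipocyte markers lie mostly below 0 with medians of −0.66 and −0.49.

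Among the cell type lists, those of skeletal muscle and fat held the most markers past the test. Of 19195 genes by 1 probe each, 3.58% rose and 7.97% fell. Of 12 skeletal muscle markers, 0 rose and 6 fell, with a median of −0.66 and a summed level of 685 to 787 with enalapril and 849 to 1185 with vehicle. Mylpf, a myosin light chain of fast muscle, fell by 0.85 ± 0.14 (adjusted p = 0.0174) and Tnnt3, a fast troponin, fell by 0.76 ± 0.15 (adjusted p = 0.0234). Mylpf kept its call in 6 of the 8 fits with an array left out, and Tnnt3 in 3. Of 11 adipocyte markers, 0 rose and 4 fell, with a median of −0.49 and a summed level of 236 to 372 with enalapril and 367 to 447 with vehicle. Slc2a4, a glucose transporter that answers to insulin, fell by 0.77 ± 0.14 (adjusted p = 0.0185) and kept its call in 5 of the 8 fits. Of the 11 keratinocyte markers 0 rose or fell, with a median of 0.09, and of the 10 fibroblast markers 0 rose and 1 fell, with a median of 0.06. Of 12 hair follicle markers 0 rose and 2 fell, with a median of −0.45, and 0 markers passed in the lists for blood endothelium, lymphocytes and neutrophils, mast cells and melanocytes. The part of these tissues in the member values was not tested.

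Member probes passed the test in some other settings. Cd44 probe 3 passed by quantile normalization. Has3 passed with array weights (1.40 ± 0.41, adjusted p = 0.0338), and Cd44 probe 2 passed without enalapril 4. Lyve1 probe 2 passed in 4 settings, namely array weights, repaired normexp, the series matrix values, and the fit without enalapril 4. With array weights 8534 of all probes passed and without enalapril 4 7061 did, so that the 2 member probes called in each stand beside a larger background. Tnfaip6 passed in none of its 21 other fits, with a smallest adjusted p of 0.135.

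**Figure D4:**
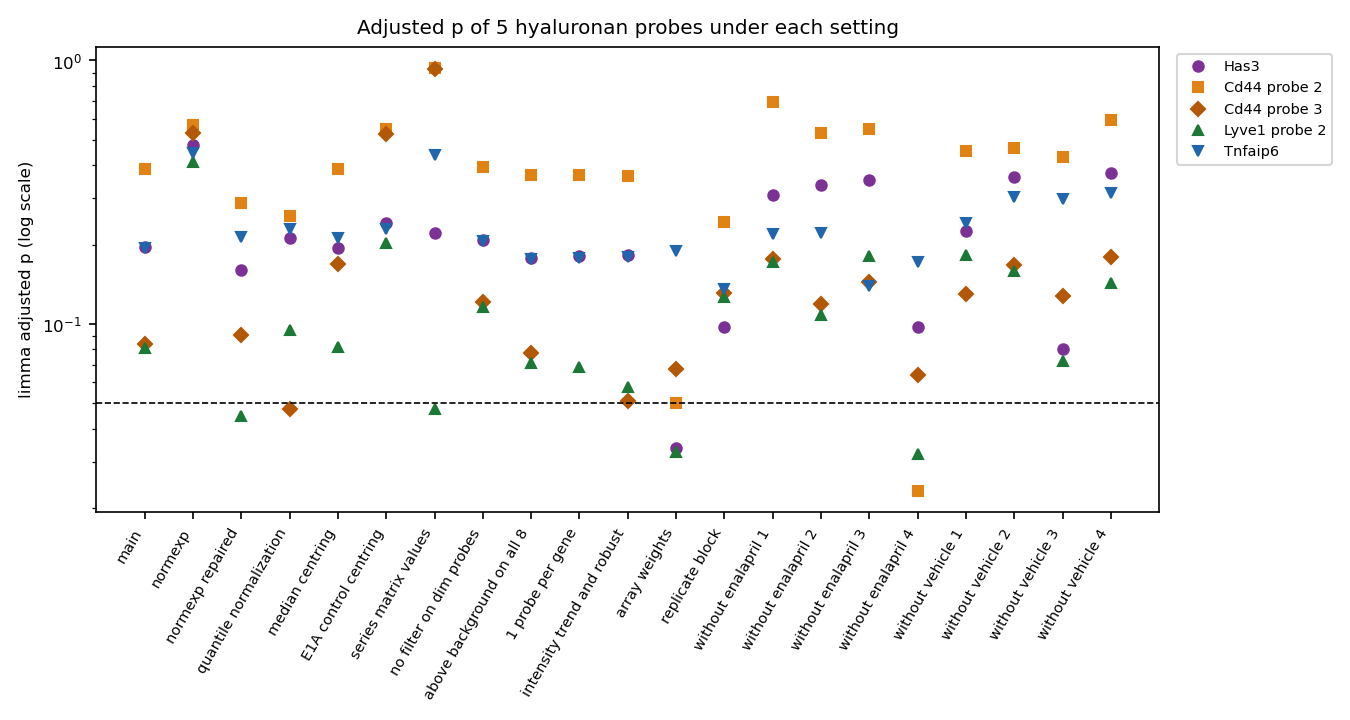
Adjusted p (vertical axis, log scale) of 5 member probes under the main analysis and each alternative, with a dashed line at 0.05. Lyve1 probe 2 lies under the line in 4 settings, Cd44 probe 3, Cd44 probe 2 and Has3 in 1 each, and Tnfaip6 in 0.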

How the data were processed

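Total RNA from 8 samples of dorsal skin, 4 per group, was labelled with Cy3 and hybridised to Agilent mouse arrays. The deposited scanner text files hold an intensity for each of 45018 spots, made with Agilent Feature Extraction 9.1.3.1 per the file headers (9.1 in the submitters' processing notes), background-subtracted and detrended within an array, without scaling across arrays. The deposited 0 or 1 flags for outlier spots and for spots well above background served to filter spots and probes. Values in the deposited series matrix are log2 values and equal the uncentred log2 processed intensity of the scanner files. Any genome build used for the array is not given in the sources used here.

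Outlier spots were removed and spots of a probe averaged, and 47 of 41174 probes had no unflagged spot on at least 1 array and were dropped. Names came from RefSeq tables (GRCm38.p6), by accession for 22951 probes, by symbol for 6659 and by synonym for 3096, while 8468 had none. Values were log2 intensity minus the array's 75th percentile. Probes well above background on at least 4 of 8 arrays were tested with limma 3.58.1 in R 4.3.3 (lmFit and eBayes, group as the only term, two-sided, Benjamini-Hochberg adjustment over all probes). Nothing was added before taking logs. For gene lists, the tested probe with the highest mean signal stood for a gene. Probes of 1 gene were compared by exact permutation over 70 splits. The number of arrays limits the precision. Simulated data with 200 changed probes among 28580 were used to test the pipeline.

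The members and gene lists were chosen with earlier results of these data known. Named were all members, every pathway gene past the test, 7 pathway genes whatever their value (Cemip, Cemip2, Stab1, Stab2, Vcan, Ugdh and Ptx3), and up to 3 markers with the smallest p of a list set beside a member. Mmp14 and Ugp2 were named after their values were seen, because a probe other than the brightest passed. Promoters were searched with Python 3.11.15 for 6 motifs. Alternatives were other background corrections (normexp, offset 50, and the same with the local background of spots below it repaired), normalizations, filters, variance estimates, array weights, a replicate block and leaving out each array.

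The labels state no pairing of samples by replicate number, so the main fit used none. Deviations of same-numbered arrays from their group means correlated between −0.13 and 0.17, and those of other pairs between −0.16 and 0.22. So few arrays cannot exclude a pairing. Slide and scan could not be fitted as blocks, because each held 1 group.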

Additional observations from a re-analysis of the deposited data

Results flagged for a closer look

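Of 34 pairs of a member probe and a group, 3 held an array whose gap to its nearest neighbour took up more of the group's range than the 95% critical value for 4 arrays allows. Chance gives such a gap in about 1 in 20 groups. Has1 probe 1 was high on vehicle 1, at −2.26, where the next array of the group was at −3.76. Cd44 probe 2 was low on vehicle 4, at 3.21, where the next array was at 3.59. Has1 probe 2 was low on enalapril 2, at −8.76, where the next array was at −8.58, and this probe was not well above background on any array.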

How the results depend on the processing

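The count of 0 called member probes became 1 with repaired normexp, quantile normalization and the series matrix values, and 2 with array weights and at an adjusted p under 0.10. It was between 0 and 2 with an array left out, the 2 arising without enalapril 4. The count of called probes (2979) was 0 with normexp, 1985 with repaired normexp, 1981 by median centring, 280 by E1A centring, 1548 in the series matrix values, 1392 with no filter on dim probes, 8534 with array weights and 5526 at an adjusted p under 0.10. It was 410 to 7061 with an array left out. The count of called pathway genes (5) was 0 with normexp and by E1A centring, 1 by median centring and with no filter, 2 in the series matrix values, 8 in a fit of 1 probe per gene, 9 with an intensity trend and robust estimation, 27 with array weights and 14 at an adjusted p under 0.10. It was 1 to 17 with an array left out. With the replicate number as a block, 38 probes, 0 pathway genes and 0 member probes were called. The labels state no pairing by these numbers. The share of called probes that were higher was 36.6%, against 46.6% by quantile normalization, 4.97% in the series matrix values and 78.9% with the block. The median of all probes was −0.05, and −0.41 in the series matrix values, −0.12 by E1A centring and 0.27 with normexp.

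Some differences that had not passed changed sign, and Rarb, which had fallen, was at 0.20 with normexp without passing. With normexp, Hyal3 probe 2 was at 0.75, Has1 probe 1 at 0.58, Lyve1 probe 1 at 0.33, Hyal1 probe 2 at −0.049 and Stab2 at 0.51. With repaired normexp, Hyal3 probe 2 was at 0.081, Has1 probe 1 at 0.038 and Hyal1 probe 2 at −0.0017. By quantile normalization, Hyal2 was at 0.018, Hmmr at −0.0030, Stab1 at 0.088 and Ugdh at 0.0047. Hmmr was at −0.026 by median centring and −0.060 by E1A centring, where Hyal1 probe 2 was at −0.0020. In the uncentred series matrix values, Has2 probes 1 and 2 were at −0.13 and −0.27, Hyal1 probes 1 and 2 at −0.16 and −0.30, Cd44 probes 1 and 3 at −0.11 and −0.047, Hmmr at −0.36, Ptx3 at −0.15, Pdpn at −0.17 and Flt4 at −0.14. With array weights, Lyve1 probe 1 was at 0.20 and Cemip at 0.010. With an array left out, Hmmr ranged from −0.16 to 0.24, Stab1 from −0.26 to 0.0098, Stab2 from −0.14 to 0.061, Ptx3 from −0.039 to 0.35, Has2 probe 2 from −0.054 to 0.24 and Has1 probe 1 from −0.27 to 0.28. The series matrix values lack the centring of each array and otherwise equal the main ones. Median and E1A centring differ from the main values only in the level subtracted from each array. The cause was not tested for the other settings.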
